A study of Homo sapiens with 14 samples.

Results

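The 54 genes described here encode the ligands, receptors, inhibitors and nuclear TCF factors of the WNT pathway. They were taken by name and not by a measured value, though earlier results of these data were known. They were 23 ligands, 14 receptors, 13 inhibitors and 4 TCF factors out of 20007 protein-coding genes of GENCODE release 44 on hg38. Each gene was followed through its body with 20 kb on each side, and these windows together covered 5.33 Mb. The promoter was taken as 1 kb on each side of any annotated transcript start. The windows of WNT1 and WNT10B, of WNT3 and WNT9B, and of WNT6 and WNT10A overlapped, so those pairs shared some peaks. In 27 of the 54 windows a transcript of another protein-coding gene also started.

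WNT ligands are secreted, lipid-modified proteins that bind frizzled receptors together with the co-receptors LRP5 and LRP6. Binding halts the destruction complex, built on the AXIN scaffolds and GSK3, so that beta-catenin accumulates and acts with TCF/LEF proteins on their target genes. R-spondins act through LGR receptors to shield frizzleds from the ubiquitin ligases RNF43 and ZNRF3. DKK proteins such as DKK1 block LRP, and the SFRP proteins and FRZB bind the ligands. In human embryonic stem cells, WNT signalling is known for driving exit towards mesoderm and endoderm, and GSK3 inhibitors are a common part of naïve media.

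Chromatin immunoprecipitation and sequencing (ChIP-seq) was done on WIBR3, an established human embryonic stem cell line, in naïve and in primed culture. Naïve cells were kept in 5i/L/A, whose additions were PD0325901, IM-12, SB590885, WH4-023, Y-27632, LIF and Activin A, and primed cells in a conventional medium with serum, KnockOut Serum Replacement and FGF2. IM-12 inhibits GSK3 and so acts on the WNT pathway itself. Every naïve library is labelled 5i/L/A. The methods state a low oxygen level for all naïve work and give none for this primed culture. State, medium and any difference in oxygen cannot be told apart. Both cultures grew on inactivated mouse embryonic fibroblasts, and the methods describe naïve cells as expanded without picking clones. The antibodies were against BRG1 and BRM, the alternative ATPases of the BAF (SWI/SNF) chromatin remodelling complex, against its core subunit BAF155, and against the pluripotency factor SOX2. Each group had 1 independent peak list, because both SOX2 lists deposited per state held the same coordinates and were counted as 1 sample. There was therefore no replicate error and no test, and intervals cover counting error only.

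The lists held 57884 naïve and 15611 primed BRG1 peaks, 62338 naïve and 58352 primed BAF155 peaks, 17413 naïve BRM peaks, and 1940 naïve and 9290 primed SOX2 peaks on chromosomes 1 to 22, X and Y. Peak lists hold no sequencing depth, so a longer list was read only against all protein-coding windows of the same list. The paper's quality metrics give more mapped reads for the primed than for the naïve library, both for BRG1 and for BAF155. Those read numbers were not used here. Fold over input, the enrichment that the peak caller gave each peak, had a median of 2.89 in naïve and 3.28 in primed BAF155 peaks, and of 2.93 and 3.54 in BRG1 peaks. In bulk cells a site bound in fewer cells and a site bound more weakly cannot be told apart. The state labels were checked with 16 marker genes. In all 8 naïve markers naïve-only BAF regions outnumbered primed-only ones, at 45 against 4 in sum. Of the 8 primed markers 6 had more primed-only regions, at 21 against 8 in sum, with SALL2 the other way and CD24 equal. Among all genes 56.1% had more naïve-only and 21.9% more primed-only regions. The paper shows SALL1 and PTPRZ1 as example loci from these same data, so their direction was known beforehand.

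The sites on which the results turn are shown first. The first set is the sequence at the summits of SOX2 peaks, where capitals mark the SOX core, CATTGT or CTTTGT or their reverse complements. All are on the plus strand of hg38, and the naïve FZD7 summit, in a peak that overlaps a primed one, is shown as one without the core in this stretch.
TCF7L2, primed, chr10:113054129-113054229: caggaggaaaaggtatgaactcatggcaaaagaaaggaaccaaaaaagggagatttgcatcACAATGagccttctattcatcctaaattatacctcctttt
LGR4, primed, chr11:27443943-27444043: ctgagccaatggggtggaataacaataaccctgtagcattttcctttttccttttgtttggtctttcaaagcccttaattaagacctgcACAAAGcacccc
SFRP2, primed, chr4:153790331-153790431: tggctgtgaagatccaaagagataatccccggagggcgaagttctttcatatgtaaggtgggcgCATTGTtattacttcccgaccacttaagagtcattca
TCF7L1, primed, chr2:85120074-85120174: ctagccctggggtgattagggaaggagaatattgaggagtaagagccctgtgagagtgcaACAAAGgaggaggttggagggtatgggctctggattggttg
FZD7, naïve, chr2:202023415-202023515: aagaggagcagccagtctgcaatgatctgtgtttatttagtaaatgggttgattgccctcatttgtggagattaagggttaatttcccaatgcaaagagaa

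The next sequences come from BAF regions bound in only 1 state. In the primed-only regions of ZNRF3, FZD2 and LEF1, capitals mark the TCF/LEF motif, CTTTGAA or CTTTGAT or their reverse complements. In the naïve-only regions of AXIN1, WNT3 and WNT9B, capitals mark a KLF-type GC-box (GGGCGGGGC, GGGCGTGGC, GGGTGGGGC or GGGTGTGGC, or their reverse complements). These too are on the plus strand.
ZNRF3, primed-only, chr22:28943253-28943339: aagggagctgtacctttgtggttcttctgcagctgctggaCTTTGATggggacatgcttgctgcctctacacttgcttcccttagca
ZNRF3, primed-only, chr22:28982015-28982101: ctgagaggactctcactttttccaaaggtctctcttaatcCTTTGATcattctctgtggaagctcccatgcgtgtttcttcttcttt
FZD2, primed-only, chr17:44547939-44548025: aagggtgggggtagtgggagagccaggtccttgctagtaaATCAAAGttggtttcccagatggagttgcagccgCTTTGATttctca
LEF1, primed-only, chr4:108129156-108129242: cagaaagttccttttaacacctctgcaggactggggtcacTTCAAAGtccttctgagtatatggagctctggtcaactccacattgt
AXIN1, naïve-only, chr16:339833-339921: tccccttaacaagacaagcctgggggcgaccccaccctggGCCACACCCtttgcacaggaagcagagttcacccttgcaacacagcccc
WNT3, naïve-only, chr17:46814385-46814473: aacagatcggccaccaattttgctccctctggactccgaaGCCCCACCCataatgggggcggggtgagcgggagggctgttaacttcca
WNT9B, naïve-only, chr17:46863076-46863164: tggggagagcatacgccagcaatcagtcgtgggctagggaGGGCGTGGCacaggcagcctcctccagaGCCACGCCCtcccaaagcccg

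WNT gene windows were denser in peaks than the windows of all protein-coding genes in each of the 7 lists other than primed BRM, which had no peak there. BAF155 peaks numbered 265 in naïve and 263 in primed cells, or 49.7 and 49.3 per Mb, against 30.2 and 26.8 per Mb over all genes. BRG1 peaks numbered 260 in naïve and 94 in primed cells, or 48.8 and 17.6 per Mb, against 27.7 and 7.69. The density of the WNT windows over that of all windows was 1.65 (95% Poisson interval 1.45 to 1.86) for naïve and 1.84 (1.62 to 2.07) for primed BAF155. For BRG1 it was 1.76 (1.56 to 1.99) in naïve and 2.29 (1.85 to 2.80) in primed cells, and for naïve BRM 1.68 (1.32 to 2.10). With peaks of at least 4-fold the BRM ratio was 1.03 (0.379 to 2.25), from 6 peaks, and that of naïve BAF155 1.18 (0.539 to 2.24), from 9. The ratios of primed BAF155 and of primed BRG1 were then 1.99 (1.47 to 2.63) and 2.02 (1.15 to 3.28), and that of naïve BRG1 1.56 (0.780 to 2.80). The SOX2 ratios were 2.40 (1.15 to 4.42) in naïve and 2.91 (2.20 to 3.78) in primed cells, the highest values though with wide intervals.

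**Figure D1:**
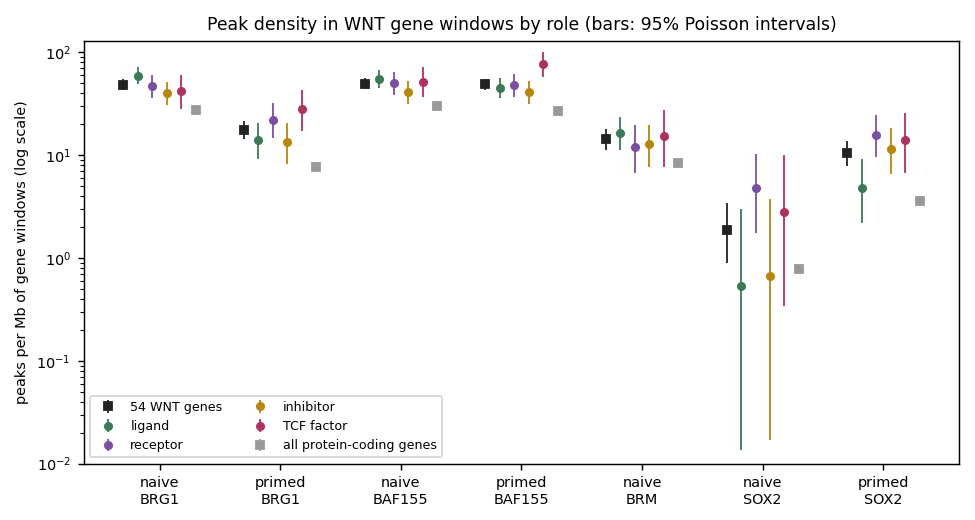
Peaks per Mb of gene windows (log axis) for each of the 7 peak lists, for all 54 WNT genes, for the 4 roles and for all protein-coding genes. Bars are 95% Poisson intervals that cover counting error only. The 54 genes lie above all protein-coding genes in these 7 lists, and the primed BAF155 value of the TCF factors is 77.1 per Mb.

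At least 1 naïve BRG1 peak lay in 53 of the 54 windows (all genes 87.3%) and at least 1 primed BRG1 peak in 41 (all genes 55.4%). The counts for BAF155 were 53 in naïve (all genes 87.2%) and 54 in primed cells (all genes 88.2%). The only window with no naïve BRG1 or BAF155 peak was that of RSPO2, an R-spondin, which held 2 primed BAF155 peaks. The WNT windows had a median length of 75.8 kb against 67.5 kb over all genes.

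By length covered, BAF155 lay more on WNT genes in primed than in naïve cells. Naïve BAF155 peaks covered 191 kb of the WNT windows and primed BAF155 peaks 282 kb, a primed-to-naïve ratio of 1.48 against 1.03 over all protein-coding windows. The whole lists covered 41.6 Mb in naïve and 43.5 Mb in primed cells. In 40 of the 54 genes (74.1%) the primed list covered more, which was so for 47.4% of all genes. With peaks of at least 4-fold over input this held for 31 genes (57.4%), against 31.0% of all genes.

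The primed-to-naïve ratio was 1.20 for ligands, 1.56 for receptors, 1.47 for inhibitors and 2.23 for TCF factors. Over the 4 TCF factors, which carry the signal on DNA, BAF155 covered 33.5 kb per Mb in naïve and 74.6 kb per Mb in primed cells. Over the 10 frizzled receptors it covered 46.0 and 95.8 kb per Mb, and over the 9 secreted inhibitors (DKK, SFRP and FRZB) 10.2 and 29.7 kb per Mb. The R-spondins had 5.10 and 20.3 kb per Mb, and the 19 WNT ligands 53.8 and 59.7. There was no such excess over the LRP and LGR receptors together, at 32.4 and 31.4 kb per Mb. Nor was there over RNF43, ZNRF3, AXIN1 and AXIN2 together, at 64.0 and 64.9. Within these sets LGR4 (5.605 and 9.28 kb) and RNF43 (3.23 and 6.65 kb) had more primed cover, and all the others more naïve cover. All protein-coding windows stood at 21.0 and 21.6 kb per Mb. BRG1, whose primed list was the shorter, covered 32.5 kb per Mb of the WNT windows in naïve and 10.4 in primed cells. Over all protein-coding windows it covered 18.7 and 3.51. By BRG1 the TCF factors had 28.6 and 15.5, the frizzled receptors 38.8 and 26.6, and the secreted inhibitors 10.9 and 4.18. The WNT ligands had 48.8 and 10.2. The R-spondins, at 10.5 and 0.495, lay below all protein-coding windows in both states.

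SFRP2, a secreted WNT-binding inhibitor, had 0.642 kb under naïve and 6.24 kb under primed BAF155 peaks. Its relative SFRP1 had 1.92 and 6.59 kb. FZD2 had 1.10 and 7.23 kb, FZD7 1.85 and 9.14 kb, FZD10 1.87 and 6.43 kb, and FZD8 2.85 and 7.34 kb. In FZD8 the whole primed cover was a single peak, and in FZD7 and FZD10 a primed peak of 5.26 kb and of 5.52 kb lay across the start. SFRP2 had one of 5.25 kb. LEF1 had 2.32 and 9.67 kb, and TCF7L2 11.7 and 26.6 kb.

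By BAF155, 14 genes had more naïve cover. They were WNT3, WNT7A, WNT8A, WNT9A and WNT10A among ligands, and FZD6, FZD9, LRP5, LRP6 and LGR5 among receptors. Among inhibitors they were DKK4, ZNRF3, AXIN1 and AXIN2. WNT3, a ligand that acts through beta-catenin, had 15.6 kb in naïve and 9.34 kb in primed cells. AXIN2, a scaffold of the destruction complex that the pathway itself induces, was nearly equal at 6.97 and 6.85 kb. No TCF factor and no R-spondin was in this group.

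**Figure D2:**
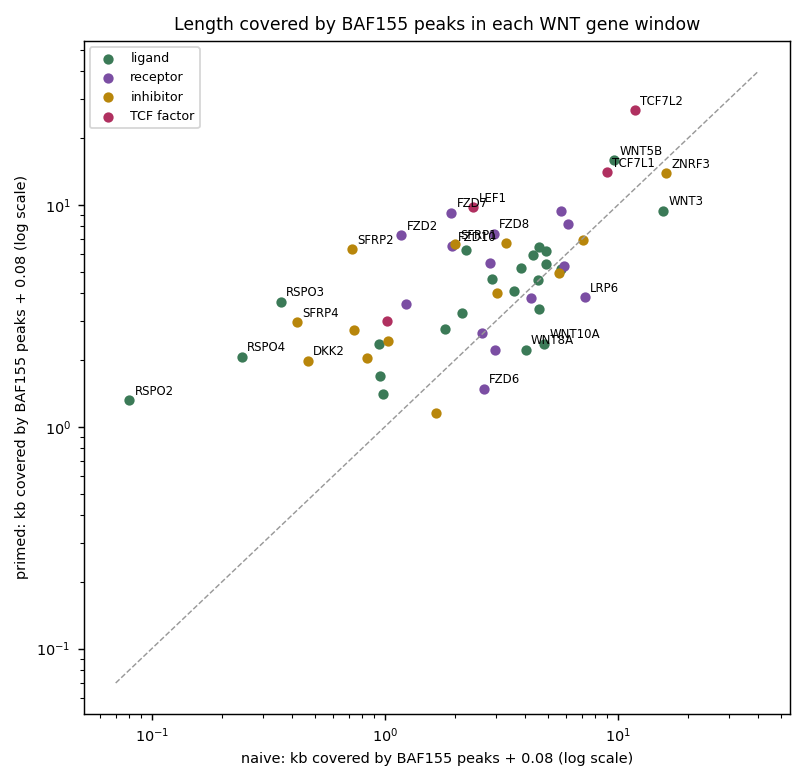
Each point is 1 of the 54 WNT genes, placed by the kb of its window under naïve (x) and primed (y) BAF155 peaks, with 0.08 kb added and both axes on a log scale. Colours give the role and the dashed line marks equality; 40 genes lie above it, with SFRP2, FZD2, FZD7, RSPO2, RSPO3 and RSPO4 far above and WNT3 and LRP6 below.

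BRG1 and BAF155 peaks of a state were then merged into BAF regions, and a region was called common where it overlapped one of the other state by at least 25% of either. The WNT windows held 168 naïve-only, 120 primed-only and 138 common regions. Naïve-only regions were 58.3% of the state-specific ones (95% exact binomial interval 52.4 to 64.1), against 63.6% over all protein-coding windows. The share was 75.6% (65.1 to 84.2) for WNT ligands, 39.1% (19.7 to 61.5) for secreted inhibitors, and 37.0% (24.3 to 51.3) for TCF factors. Frizzled receptors stood between, at 44.8% (26.4 to 64.3). More primed-only than naïve-only regions were found in 20 genes (37.0%), against 21.9% of all genes, and more naïve-only regions in 25 genes (46.3%), against 56.1% of all genes. The other 9 were equal.

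This balance moved with peak strength. Keeping peaks with a fold of at least 4, 29 genes had more primed-only regions (53.7%, all genes 27.8%) and 2 had more naïve-only regions (3.70%, all genes 9.17%). The naïve-only share of state-specific regions was then 18.0% for WNT genes and 23.5% over all protein-coding windows. From BRG1 peaks alone, whose primed list was the shorter, it was 87.3% for WNT genes and 90.6% over all.

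In all 4 TCF factors primed-only regions outnumbered naïve-only ones. LEF1, on chr4:108047545-108168956, had 0 naïve-only, 6 primed-only and 3 common regions. Its window held 2 naïve and 5 primed BRG1 peaks, 3 naïve and 9 primed BAF155 peaks, no BRM peak, and 0 naïve and 1 primed SOX2 peaks. Of the primed-only regions 5 lay inside the gene, between 7.77 and 39.7 kb from its start, and the sixth lay before it. The one at 39.7 kb held the TCF/LEF motif printed above. TCF7L2, on chr10:112950247-113167678, had 10 naïve-only and 16 primed-only regions, with 17 naïve and 23 primed BAF155 peaks. TCF7L1, a TCF factor best known as a repressor, had 9 and 10, and TCF7 had 1 and 2. These last gaps of 1 region are within counting error.

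Among receptors the frizzleds FZD3 and FZD7 had the largest primed-only excess. FZD3 had 2 naïve-only and 5 primed-only regions, FZD7 had 0 and 3, and FZD1 had 0 and 2. The co-receptors lay the other way, with 11 and 3 in LRP5 and 8 and 3 in LRP6. LRP5 had 11 naïve and 1 primed BRG1 peaks and 9 naïve and 6 primed BAF155 peaks. FZD4, FZD5 and LGR5 followed with 2 more naïve-only than primed-only regions each. LGR4, a receptor for R-spondins, was rich in both, with 7 naïve-only and 8 primed-only regions.

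More naïve-only regions were found in 14 of 23 ligands (60.9%), near the 56.1% of all genes. WNT3 had 11 naïve-only and 1 primed-only regions, WNT5B 12 and 4, WNT3A 7 and 1, and WNT9A 6 and 0. In its window the ligand WNT3 held 15 naïve and 4 primed BRG1 peaks, from lists of unequal length, 17 naïve and 9 primed BAF155 peaks, and 9 BRM peaks, the most of any WNT gene. Ligands with a primed-only excess were RSPO2, at 0 and 2, and WNT1, WNT2, WNT4, WNT16, RSPO1 and RSPO4, each with 1 more primed-only region. WNT5A, a ligand mostly of beta-catenin-independent signalling, had 3 common regions and none bound in only 1 state.

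**Figure D3:**
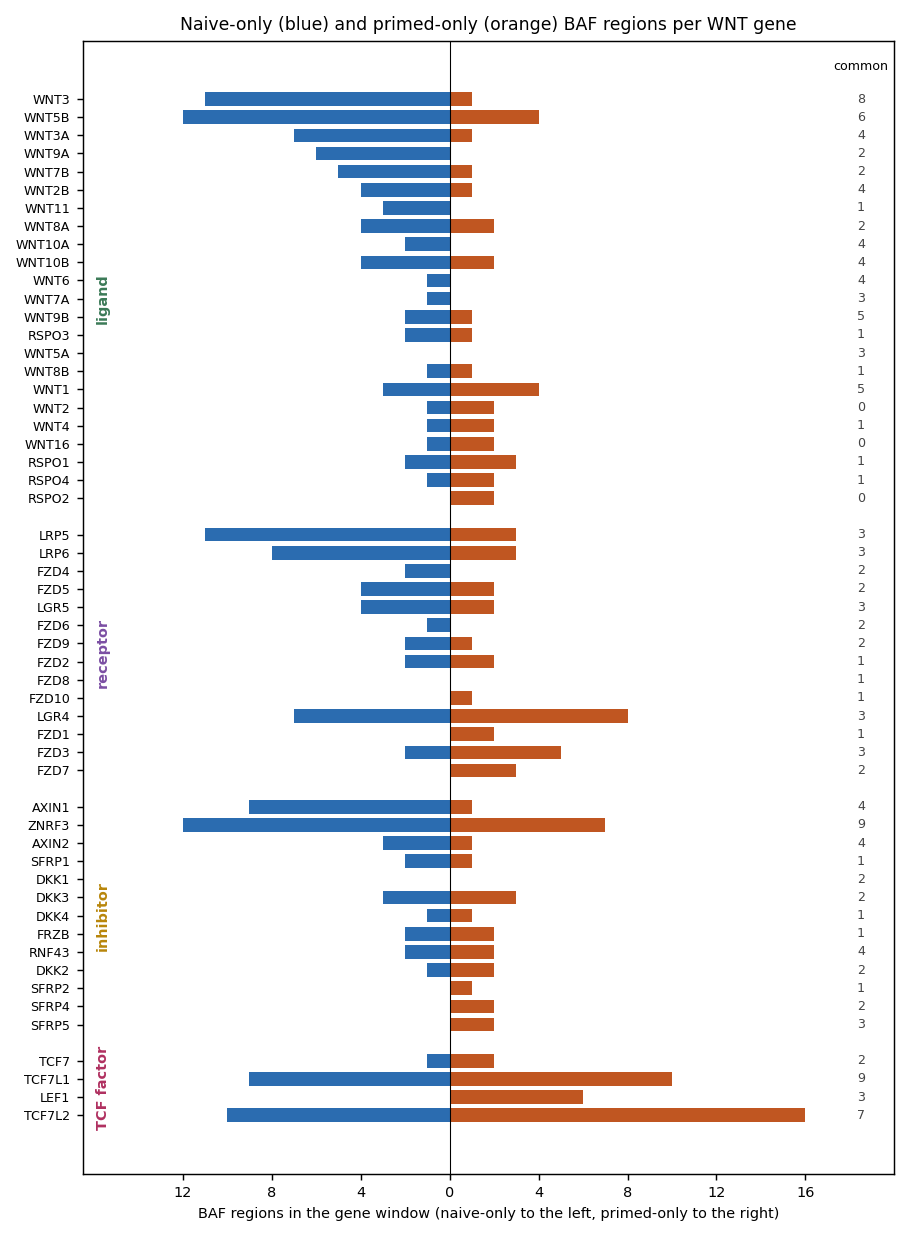
Naïve-only (blue, to the left) and primed-only (orange, to the right) BAF regions in the window of each of the 54 genes, grouped by role and ordered by the difference, with the number of common regions at the right edge. Ligands such as WNT3 (11 and 1) extend to the naïve side, and all 4 TCF factors have the longer bar on the primed side.

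Among inhibitors, 4 leaned to each side and 5 were equal. The cytoplasmic scaffold AXIN1 had 9 naïve-only and 1 primed-only regions, the ubiquitin ligase ZNRF3 12 and 7, and AXIN2 3 and 1. The secreted inhibitors SFRP4 and SFRP5 had 0 and 2 each, and SFRP2 had 0 and 1. AXIN1 had no primed BRG1 peak, against 12 naïve ones. Its strongest naïve BAF155 peak, with a fold of 5.47 at chr16:273333-274083, lay in the neighbouring gene RGS11, 0.565 kb from its start. DKK1, which blocks LRP5 and LRP6, had 2 common regions and no state-specific one.

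**Figure D4:**
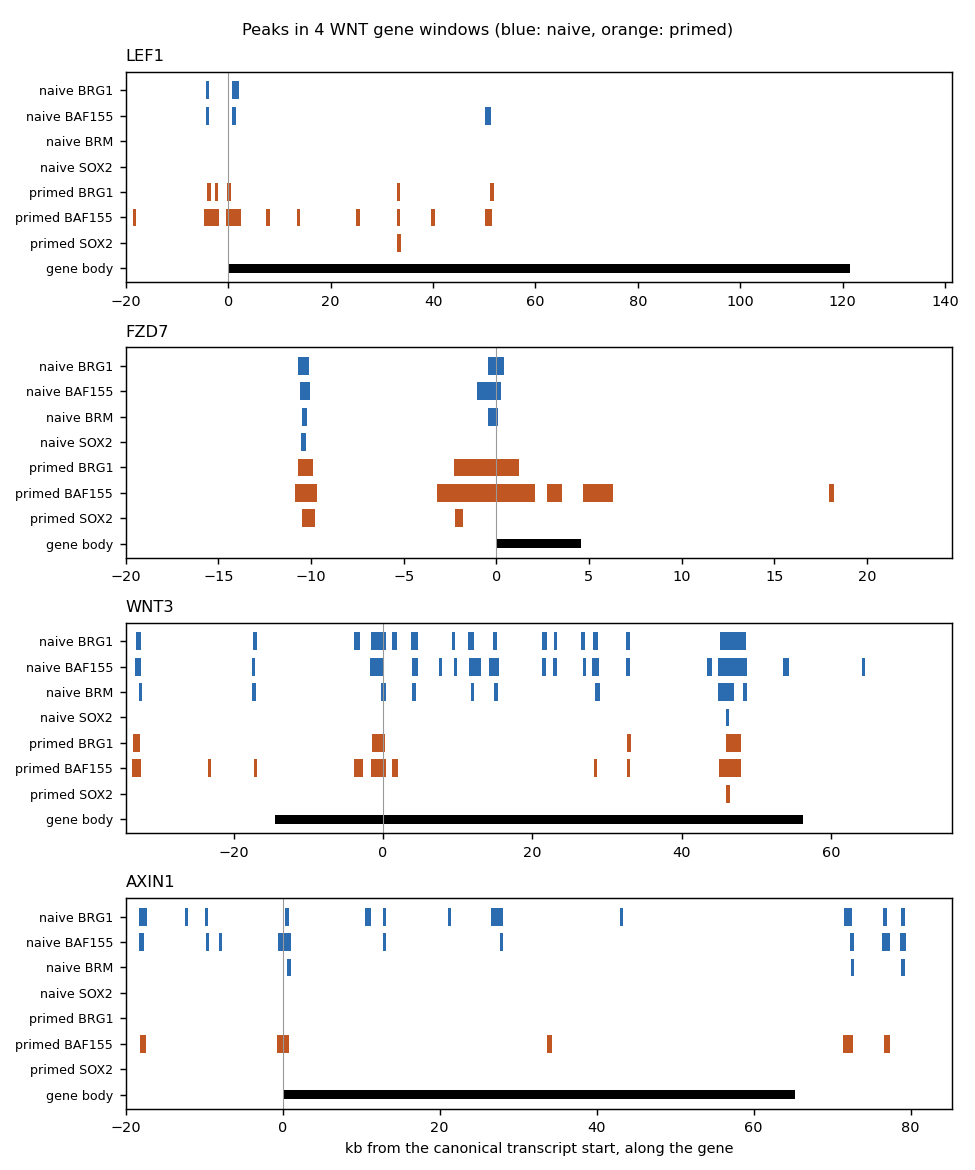
Peaks of each list (rows) along the windows of LEF1, FZD7, WNT3 and AXIN1, in kb from the start of the canonical transcript along the gene, with naïve peaks in blue, primed peaks in orange and the gene body in black. The narrowest peaks are drawn wider than to scale so that they can be seen. LEF1 and FZD7 have more primed than naïve BAF155 peaks (9 against 3 and 5 against 2), and WNT3 and AXIN1 more naïve than primed ones (17 against 9 and 9 against 5).

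A BAF region was centred at a promoter in 46 of the 54 genes in naïve cells (85.2%, all genes 71.2%) and in 47 in primed cells (87.0%, all genes 71.6%). In WNT8A and WNT8B neither state had one. The rule by region centre misses regions that reach into a promoter but are centred outside it, as in primed cells at FZD5, FZD8, FZD10, SFRP2 and WNT16. Counted by overlap the numbers were 47 in naïve (87.0%, all genes 73.0%) and 52 in primed cells (96.3%, all genes 72.9%). Genes with a primed but no naïve region over the promoter, also by overlap, were WNT2, RSPO2, FZD2, DKK4 and FRZB. No share over all genes is given for that list. Counted by centre, 6 of the 54 genes had a primed region alone and 5 a naïve one alone. Over all 20007 genes these numbers were 1403 and 1323. Common regions were centred at a promoter in 48.6% of cases, against 10.7% of regions bound in naïve cells alone and 14.2% of those bound in primed cells alone. Over all protein-coding windows these shares were 59.8%, 15.6% and 18.2%.

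The TCF/LEF words, which the pathway's own factors recognise, were sought on both strands in the 200 bases at each region centre. They occurred in 14 of 120 primed-only regions (11.7%, 95% exact binomial interval 6.53 to 18.8) and in 10 of 168 naïve-only regions (5.95%, 2.89 to 10.7). All primed-only regions in protein-coding windows held one in 9.58% of cases and all naïve-only regions in 5.25%, both inside the intervals for WNT genes. The 14 regions lay in 11 genes, 3 of them in ZNRF3 and 2 in FZD7. The primed-only region at the DKK4 promoter held 3 matches, the most of any. KLF-type boxes occurred in 17 of 168 naïve-only regions (10.1%, 6.01 to 15.7) and in 1 of 120 primed-only regions (0.833%, 0.0211 to 4.56), against 5.79% and 1.82% over all protein-coding windows. AXIN1 held 4 of the 17, ZNRF3 3 and WNT3 2.

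A SOX core was held by 35 of the 120 primed-only regions (29.2%) and by 31 of the 168 naïve-only regions, against 33.0% and 21.3% over all protein-coding windows. ZIC-type words (CCTGCTG) were in 13 primed-only (10.8%) and 16 naïve-only regions (9.52%), against 13.3% and 7.15%. Matches to the TFAP2 consensus were in 27 primed-only (22.5%) and 55 naïve-only regions (32.7%), against 20.0% and 26.8%. The OCT4-SOX2 element, which holds the SOX core and an adjoining octamer part, was sought with up to 2 mismatches. At the region centres it was in 0 of 120 primed-only (0 to 3.03%) and 2 of 168 naïve-only regions (1.19%, 0.144 to 4.23). Over all protein-coding windows the shares were 2.56% and 1.03%, both inside the intervals for WNT genes. Bases away from the centres were not covered, and there a primed-only region of TCF7L2 held the element with 0 mismatches. The median GC content was 49% for the primed-only set and 52% for the naïve-only set, and its part in these shares was not tested.

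Of the RefSeq promoters (GRCh38.p14, 250 bases before to 50 after the start), 37 of the 54 genes matched one. A TCF/LEF word lay in 1 of them, against 5.47% of 15345 protein-coding promoters. That promoter was of DKK1, itself a known feedback target, whose 250 bases before the start are shown on the plus strand with the word in capitals.
DKK1, chr10:52314031-52314280: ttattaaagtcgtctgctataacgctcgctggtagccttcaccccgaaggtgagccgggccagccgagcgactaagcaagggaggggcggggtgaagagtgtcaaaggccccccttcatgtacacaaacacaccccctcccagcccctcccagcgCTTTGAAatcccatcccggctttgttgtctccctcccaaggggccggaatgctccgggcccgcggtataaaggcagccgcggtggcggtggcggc

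BRM, the alternative ATPase, was measured with a useful list in naïve cells alone. At least 1 naïve BRM peak lay in 33 of the 54 windows (61.1%), against 54.3% of all genes, with 76 peaks in all. With stronger peaks no excess was seen. At a fold of at least 4, 4 genes held one (7.41%, all genes 11.7%), and at a −log10 q of at least 3, 6 genes (11.1%, all genes 19.2%). The BRM density of WNT windows over that of all windows was then 1.03 (0.379 to 2.25) and 1.12 (0.561 to 2.01), so no reversal can be read from these few peaks. Of the 76 peaks, 73 fell in a naïve BAF region and 48 in a common one. Behind WNT3 with 9 came ZNRF3 and TCF7L1 with 6 each and TCF7L2 with 5, while LEF1 and TCF7 had none. Among naïve-only regions 25 of 168 (14.9%) carried a BRM peak, against 14.5% over all protein-coding windows, and among common regions 46 of 138 (33.3%), against 31.8%. The strongest BRM peak, with a fold of 4.32, lay 2.88 kb inside LRP5 at chr11:68315334-68315614. The others of the leading 3 lay in introns of TCF7L1, with a fold of 4.30, and of ZNRF3, with 4.16. The primed BRM list held 167 peaks and none in a WNT window, and a count of 0 allows up to 1.80% of that list.

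SOX2 was the transcription factor measured beside the complex. In primed cells its 56 peaks lay in 30 of the 54 windows (55.6%), against 26.3% of all genes. They reached 10 of 14 receptors, 8 of 13 inhibitors, 3 of 4 TCF factors and 9 of 23 ligands. The 10 frizzled genes held 16 of them, or 28.8 per Mb (95% Poisson interval 16.4 to 46.7), against 3.61 per Mb over all protein-coding windows and 5.82 per Mb (2.51 to 11.5) in WNT ligands. Naïve SOX2 had 10 peaks in 8 windows (14.8%), against 7.56% of all genes, and 6 of these peaks lay at receptors. In all, 31 genes had a SOX2 peak of either state and 7 had both. These last counts are given without a share over all genes and are not read as a result about WNT genes.

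Every one of the 10 naïve SOX2 peaks lay in a common BAF region, and 9 overlapped a primed SOX2 peak. Over all protein-coding windows 59.6% of naïve SOX2 peaks lay in common regions and 45.3% overlapped a primed SOX2 peak, so the exact binomial intervals of 69.2 to 100% and 55.5 to 99.7% for WNT genes lay above those shares. The single unshared peak, with a fold of 7.90, was in exon sequence of LGR5, an R-spondin receptor and pathway target that had no primed SOX2 peak. Of the 56 primed peaks, 52 (92.9%) lay in a primed BAF region, against 89.4% over all, 34 (60.7%, 46.8 to 73.5) in a common region, against 48.1%, and 18 (32.1%, 20.3 to 46.0) in a primed-only region, against 41.8%. The 4 outside BAF regions were in SFRP1, AXIN2 and WNT7B and in the window that WNT1 and WNT10B share.

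**Figure D5:**
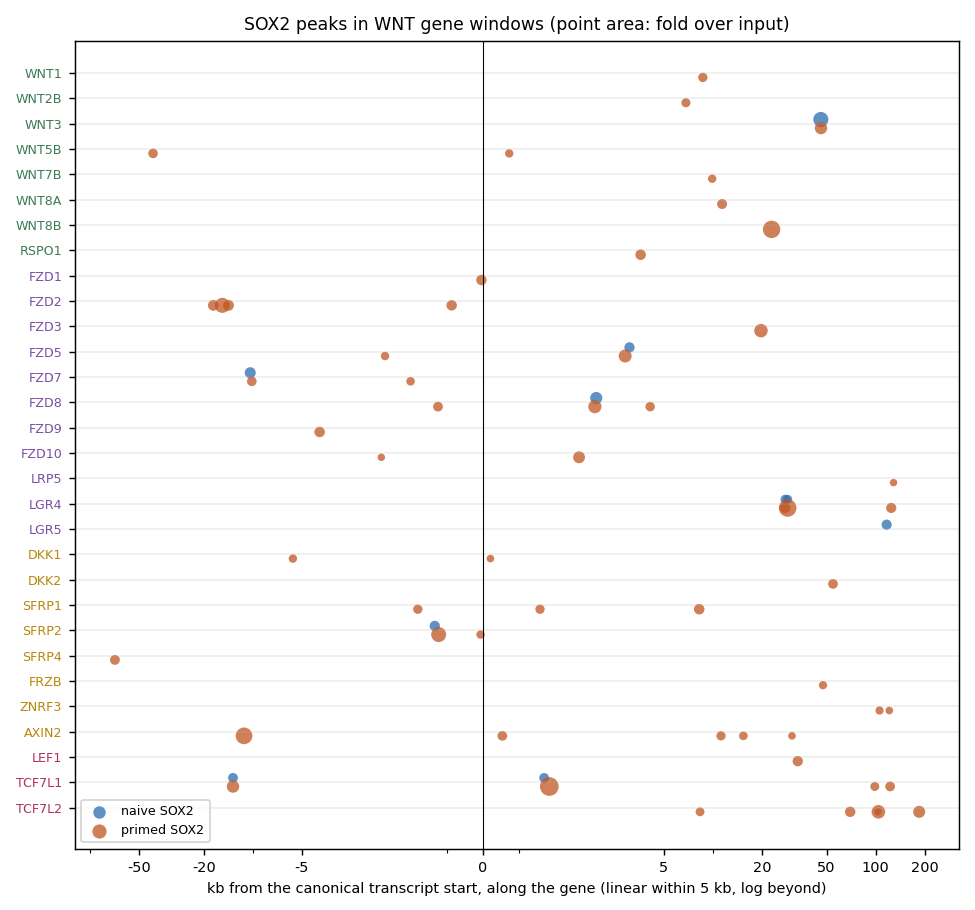
SOX2 peaks of naïve (blue) and primed (orange) cells in the 30 WNT genes to which they were nearest, in kb from the canonical transcript start along the gene (linear within 5 kb, log beyond), with point area proportional to fold over input. Name colours give the role, and 9 of the 10 naïve points sit on or beside a primed point.

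By fold, the leading primed SOX2 sites were in TCF7L1 (26.9), LGR4 (23.9) and WNT8B (23.3). The TCF7L1 peak, at chr2:85134930-85135525, lay 1.84 kb inside the gene and 0.860 kb from a transcript start. The same place was bound in naïve cells with a fold of 7.35. The sequence printed for TCF7L1 is of its next site, 13.3 kb before the start, with 11.9 in primed and 7.43 in naïve cells. The LGR4 peak, at chr11:27443661-27444294, was in an intron 28.8 kb inside the gene and matched a naïve peak with a fold of 6.22. The WNT8B peak, at chr10:100485524-100486403, was intergenic, lay in a primed-only BAF region and was nearer to the start of SEC31B, at 4.21 kb, than to WNT8B. Folds of both states come from different libraries and are set side by side with no comparison.

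AXIN2 held 5 primed SOX2 peaks and no naïve one. One of them, with a fold of 7.22 and not the strongest, was at the AXIN2 promoter. TCF7L2 also held 5 primed peaks and no naïve one, 4 of them in primed-only regions. The strongest, with a fold of 14.1 at chr10:113054030-113054362, lay 104 kb inside the gene. It held the OCT4-SOX2 element with 0 mismatches, CATTGTGATGCAAAT on the minus strand at chr10:113054181-113054195, centred 9 bases from the summit. The element, with up to 2 mismatches, occurred within 100 bases of 5 of 56 primed summits (8.93%, 2.96 to 19.6) against 11.8% over all protein-coding windows, and a SOX core in 35 (62.5%) against 60.6%.

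Of the 10 frizzled genes, 8 had a primed SOX2 peak. FZD2 held 4 and no naïve one. The strongest, with a fold of 17.4, was 15.4 kb before the start, where 3 of the 4 lay inside a single primed BAF155 peak of 4.53 kb. FZD8 held 3, of which the peak with a fold of 13.3 lay in its exon, 3.10 kb from the start, and matched a naïve peak with a fold of 11.4. FZD5 was alike in this, with 13.0 in primed and 8.14 in naïve cells at exonic sites 3.93 kb and 4.05 kb from the start. FZD7 had its shared site 10.2 kb before the start, with 7.13 in primed and 9.37 in naïve cells. FZD10 (10.8), FZD9 (8.50) and FZD1 (8.35) had primed peaks and no naïve one, as had FZD3 (13.97) in an intron, and that of FZD1 was 0.040 kb before the start. FZD4 and FZD6 had no SOX2 peak.

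Among inhibitors, SFRP2 had a site 1.22 kb before its start with a fold of 17.3 in primed and 8.17 in naïve cells. SFRP1 had 3 primed peaks with a highest fold of 8.47, and DKK1 had 2, the stronger with 5.43 and the weaker, with 4.48, at its promoter. SFRP4 (7.45), DKK2 (7.29), FRZB (5.28) and ZNRF3 (5.17) had primed peaks alone. Among ligands, WNT3 had the strongest naïve SOX2 peak of all WNT windows, with a fold of 17.6 at chr17:46772415-46772829, near an alternative start 46.1 kb inside the gene. The primed peak there had 11.8. RSPO1 (8.50), WNT8A (7.63), WNT5B (7.06), WNT1 and WNT10B (6.69, 1 shared peak), WNT2B (6.37) and WNT7B (5.41) had primed peaks alone. So had LEF1 (8.20), 33.2 kb inside the gene, and LRP5 (4.27). The SOX2 peak of LEF1 was in a primed-only BAF region.

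The 7 members that are known targets of the pathway itself were AXIN2, LEF1, TCF7, LGR5, RNF43, ZNRF3 and DKK1. All 7 had a promoter BAF region in both states, as had 64.6% of all genes, and at least 1 primed BRG1 peak, as had 55.4%. They did not lean one way, as 2 had more primed-only regions (LEF1 and TCF7), 3 had more naïve-only regions (ZNRF3, AXIN2 and LGR5), and RNF43 and DKK1 were equal. The RNF43 window held 5 naïve and 3 primed BRG1 peaks and 5 naïve and 6 primed BAF155 peaks. TCF7 held 2 and 2 BRG1 peaks and 2 and 4 BAF155 peaks. DKK1 held 2 and 1 BRG1 peaks and 2 and 2 BAF155 peaks.

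The strongest BAF peaks of each list recurred at a few genes. In naïve cells BRG1 was strongest in TCF7L1 (fold 5.00, 63.4 kb inside), TCF7L2 (4.64) and WNT3 (4.44), and BAF155 in the AXIN1 window (5.47), TCF7L2 (5.11) and WNT10B (4.94). In primed cells TCF7L2, WNT10A and WNT2B led both lists. The BRG1 folds were 5.26, 5.22 and 4.84, and the BAF155 folds 6.82, 5.75 and 6.27, in that order of genes. The TCF7L2 site was the same for both, at chr10:113087209-113087852 for BAF155, 137 kb inside the gene and common to both states.

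Among 31 further genes of the pathway, 13 (41.9%) had more primed-only regions, against 21.9% of all genes, and 14 (45.2%) more naïve-only regions, against 56.1%. ROR1, a receptor for beta-catenin-independent signals, had 3 naïve-only and 14 primed-only regions. WLS, the carrier that brings ligands to the surface, had 1 and 6. CTNNB1, the gene of beta-catenin, had 2 and 6, TNKS2 1 and 5, and NKD1 0 and 4. On the other side were DVL1, which relays the frizzled signal, with 9 and 1, KREMEN1 with 9 and 2, and TLE1, a co-repressor of TCF factors, with 11 and 4. KREMEN1 starts within the ZNRF3 window, so these counts share regions. The 31 genes were listed with earlier results known. A primed SOX2 peak lay in 14 of the 31 windows (45.2%), against 26.3% of all genes.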

How the data were processed

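ChIP-seq of BRG1, BRM, BAF155 and SOX2 in naïve and primed WIBR3 cells was analysed from peak lists. Per the methods, the authors trimmed reads, aligned them to hg38 with Bowtie2 (2.3.4 in the submitters' processing notes, with SAMtools 0.1.19 and FastQC 0.10.1), removed duplicates, and called broad (BAF subunits) or narrow (SOX2) peaks with MACS2 against input. SOX2 libraries were paired-end and the others single-end, and whether replicates were pooled is not given in the sources used here. Besides positions, the deposited files hold a score, the fold over input as a ratio, and −log10 p and q values per peak, all as the authors' peak caller gave them. No counts or depth were used, and input samples were not analysed here.

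A peak belonged to a window that held its midpoint, with 20 kb on each side of GENCODE release 44 genes. BRG1 and BAF155 peaks of a state were merged into regions, common where they overlapped by 25% of either. Motifs were sought in 200 bases at midpoints or summits. Intervals are exact binomial or Poisson at 95%, cover counting error only, and treat peaks as independent. With 1 independent list per group, no test was run. Scripts (Python 3.11.15, pandas 2.3.3, scipy 1.17.1) were tested on simulated data.

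The members and gene lists were chosen with earlier results of these data known. Values are given for the 3 genes per role with the largest excess of regions in each direction, every gene with a SOX2 peak, the 7 pathway targets and the 3 strongest peaks per list. Genes named for BAF155 cover, and others outside that rule, were chosen after their values were seen. Alternatives were another flank, promoter width, overlap, peak strength, list length, antibody and motif window. Most SOX2 sites beyond the strongest of a gene are given by counts alone, and a result is not reported here.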

Additional observations from a re-analysis of the deposited data

How the results depend on the processing

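Of 115 values under alternative settings, over 17 results, 84 stayed within 1.5 times or within the counting interval and 31 moved. Values over all protein-coding genes moved along with several of them. With a fold of at least 4, naïve peaks were 15.5% of BAF155 peaks (main 50.2%, all genes 23.7%) and 40.7% of BRG1 peaks (main 73.4%, all genes 47.0%), and naïve-only regions 18.0% of state-specific ones (all genes 23.5%). Then 2 genes had more naïve-only regions (3.70%, all genes 9.17%). Promoter regions were in 14 genes in primed (25.9%, all genes 11.9%) and 4 in naïve cells (7.41%, all genes 4.17%). BRM peaks were in 4 genes (7.41%, all genes 11.7%), and WNT windows held 0.335% of the BRM peaks of all windows (main 0.545%). With a −log10 q of at least 3, naïve peaks were 36.8% of BAF155 peaks (all genes 40.9%) and naïve-only regions 39.4% of state-specific ones (all genes 46.0%). More naïve-only regions were then in 12 genes (22.2%, all genes 31.5%). Promoter regions were in 29 genes in primed (53.7%, all genes 39.9%) and 21 in naïve cells (38.9%, all genes 31.1%). BRM was in 6 genes (11.1%, all genes 19.2%), and WNT windows held 0.365% of BRM peaks. With lists cut to equal length, naïve peaks were 46.3% of BRG1 peaks (all genes 48.3%) and 41.7% of SOX2 peaks (all genes 52.3%), and naïve-only regions 48.4% (all genes 52.8%). Primed SOX2 was then in 12 genes. The cut also left naïve BRM only its 167 strongest peaks, the length of the primed list, while its strongest peak in a WNT window ranked 1500 by fold. The resulting 0 genes and 0 BRM peaks were thus fixed by the cut and say nothing about WNT windows. From BAF155 alone the naïve-only share was 48.1%. From BRG1 alone it was 87.3%, with 3 genes of more primed-only and 42 of more naïve-only regions and primed promoter regions in 28. With 60 kb on each side the BRM share was 0.687%, and within gene bodies alone 19 genes held BRM. Gene counts under equal list length, BRG1 alone and gene bodies are given without a share over all genes. They are therefore not read as results about WNT genes. In 400 bases, TCF/LEF words were in 20.8% of the primed-only set, 11.3% of the naïve-only set, and KLF boxes in 16.1% of naïve-only ones. The BAF155 and BRG1 cover and the peak densities by strength were added after seeing the data. No paired analysis was possible because each group had 1 independent list and no test was run. Depth was not used here, so an absent peak shows only that none was called.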
